A study of Mus musculus with 8 samples.

Results

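A set of 147 nuclei with unusually many counts at red blood cell gene loci was taken from single-nucleus ATAC-seq libraries of wild-type mouse embryonic forebrain and compared with the other 36548 nuclei of 5000 or more counts. ATAC-seq counts the places where a transposase cuts open chromatin, and a nucleus here is 1 droplet barcode. The libraries came from the cortex (CTX) and the medial, lateral and caudal ganglionic eminences (MGE, LGE and CGE, jointly GE), with 2 samples a region. The samples were of age E12.5 (embryonic days), except CTX replicate 2, which was of age E14.5. Age therefore cannot be told apart from the difference between the CTX samples.

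The nuclei were chosen by a score, the share of a nucleus's counts in peaks that overlap the body or the 2000 bp upstream of 8 genes. These were Epor, Gypc, Klf1, Tal1, Kcnn4, Smim1, Tmc8 and Gpr146. The nuclei of all 8 samples were pooled, and the top 0.4% by score were kept and are called members. Of 39253 nuclei in all, 36695 had 5000 or more counts. Member scores ran from 0.112% to 0.452%, with a median of 0.150%, against a median of 0.0155% in the other nuclei. The last nucleus inside and the first outside both rounded to 0.112%, so the cut falls within a continuous range.

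Red blood cells of the mouse embryo arise first in the yolk sac and then in the liver, and unlike adult mammalian red cells the earliest ones circulate with a nucleus. GATA1, TAL1 and KLF1 are the transcription factors that open and hold open the loci of globins, heme synthesis and the membrane skeleton in this lineage. Myeloid cells, which include the microglia that settle in the embryonic brain, are instead defined by SPI1 (PU.1), CEBPA and IRF8 and by receptors such as CSF1R. The question was whether erythroid and myeloid loci were open in the same nuclei.

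The sequences below show the DNA that carried the comparison. The first 3 are the centres of the regions with the largest fold higher in members (an edgeR comparison described further on), from GRCm38, plus strand, 5′ to 3′. Capitals mark 3 words on either strand: AGATAA, the core bound by GATA factors, a 10-letter word bound by NFE2 (TGACTCA, then GCA), and CCACACCC, bound by KLF1.

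C2cd3 intron region, chr7:100467100-100467399: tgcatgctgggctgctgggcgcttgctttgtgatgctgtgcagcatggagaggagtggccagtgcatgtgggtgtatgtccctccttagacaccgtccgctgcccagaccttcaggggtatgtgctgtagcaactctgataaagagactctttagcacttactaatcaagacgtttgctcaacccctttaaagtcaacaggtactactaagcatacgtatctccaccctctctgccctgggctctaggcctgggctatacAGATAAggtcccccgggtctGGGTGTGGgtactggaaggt
Ksr1 intron region, chr11:79071568-79071867: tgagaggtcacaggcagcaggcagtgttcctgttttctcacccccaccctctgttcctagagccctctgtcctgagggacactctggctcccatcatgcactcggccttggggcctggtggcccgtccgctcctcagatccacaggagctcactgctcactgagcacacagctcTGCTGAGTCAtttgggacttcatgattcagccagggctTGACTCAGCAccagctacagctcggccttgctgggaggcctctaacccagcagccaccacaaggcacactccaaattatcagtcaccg
Rbfox1 intron region, chr16:6096034-6096333: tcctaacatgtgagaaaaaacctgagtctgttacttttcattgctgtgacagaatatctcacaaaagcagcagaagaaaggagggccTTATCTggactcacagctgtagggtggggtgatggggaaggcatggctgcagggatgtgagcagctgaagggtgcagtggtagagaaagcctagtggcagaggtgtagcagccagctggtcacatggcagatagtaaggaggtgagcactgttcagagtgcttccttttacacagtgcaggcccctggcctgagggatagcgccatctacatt

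The next pair are promoters, 250 bases before to 50 after the RefSeq start (GRCm38.p6), printed on the gene's own strand, with the same words in capitals. Epor encodes the erythropoietin receptor and was a gene of the score. Icam4 encodes a red cell adhesion molecule and was not.

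Epor promoter, chr9:21963527-21963826, minus strand: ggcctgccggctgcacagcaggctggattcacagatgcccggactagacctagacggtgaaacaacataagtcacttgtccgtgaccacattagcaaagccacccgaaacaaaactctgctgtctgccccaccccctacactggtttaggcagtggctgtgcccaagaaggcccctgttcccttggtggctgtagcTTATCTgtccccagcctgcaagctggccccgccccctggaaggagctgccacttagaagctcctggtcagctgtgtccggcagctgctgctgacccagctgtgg
Icam4 promoter, chr9:21029182-21029481, plus strand: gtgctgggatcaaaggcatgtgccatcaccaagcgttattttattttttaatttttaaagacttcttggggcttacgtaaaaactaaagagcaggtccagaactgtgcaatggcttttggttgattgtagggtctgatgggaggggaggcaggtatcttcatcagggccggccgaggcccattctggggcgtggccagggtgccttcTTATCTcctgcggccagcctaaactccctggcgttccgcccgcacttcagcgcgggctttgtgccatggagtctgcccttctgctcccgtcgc

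The C2cd3 and Icam4 sequences each held the spaced word (CTG, 8 bases of any kind, then AGATAA), the arrangement bound by a complex of TAL1 and GATA1, on one strand or the other. AGATAA stood in 11.2% of all 32851 RefSeq promoter sequences and the spaced word in 0.362%. RefSeq sequences were matched for 30 of the 40 genes of the erythroid list, which gave 36 promoters. Of these, 8 (22.2%) held AGATAA and 3 (8.33%) the spaced word, the printed Icam4 promoter among the 3. Of the 10 promoters matched for 7 of the 8 genes of the score, 3 held AGATAA and 0 the spaced word. A match describes the letters and is not a measured binding site.

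Members occurred in every sample, but unevenly. CTX replicate 1 held 4, CTX replicate 2 held 35, MGE replicate 1 held 38 and MGE replicate 2 held 5. LGE held 26 and 15, and CGE held 16 and 8, in replicates 1 and 2. As a share of nuclei, the range ran from 0.103% in CTX replicate 1 (95% exact binomial interval 0.0282 to 0.264) to 0.729% in CTX replicate 2 (0.508 to 1.01). The highest and the lowest share were thus both from the cortex. These intervals cover counting error only. The cut was the same for all samples, but peaks were called in each library alone. Peaks of the score spanned 23567 bp in LGE replicate 1 to 42449 bp in CTX replicate 2. In the other nuclei they held 131 CPM (defined below) in CTX replicate 1 to 251 in MGE replicate 1. With a score over regions present in all 8 samples, shares were 0.0775% and 0.542% in CTX and 0.151% to 0.723% in GE. How far such baselines set the shares was not tested.

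The mean share was 0.416% in the 2 CTX samples and 0.359% ± 0.178 (SD, n = 6) in GE. The difference of 0.0570 percentage points had a two-sided exact permutation p of 0.821 over 28 choices of samples, where the smallest possible is 0.0357. It turned to -0.256 points without CTX replicate 2 and was 0.370 points without CTX replicate 1. A regional difference in either direction was not detectable with these samples.

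Members were shallower nuclei, with a median of 11001 counts against 16739.5 in the other nuclei, and they were shallower in every sample. In the 7 samples with 5 or more members, members together gave 51742 to 488885 counts a sample, which limits what can be seen at single genes. No doublet caller was run. Of the members, 3 had a barcode that also occurs in another library, and no barcode was shared between 2 members. For comparison, 1772 of the 39253 nuclei had such a barcode. A larger share of the members' counts lay in peaks within 1000 bp of a transcription start site. It was 61.8% to 76.6% by sample in members and 41.1% to 57.4% in the others, higher in members in all 8 samples.

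The 8 genes of the score are described first, with no test, since they chose the nuclei. Unless stated otherwise, levels are CPM, the counts per 1000000 peak counts of those nuclei, and coordinates are of GRCm38. A gene's level sums its peaks, so levels are compared between groups of nuclei and not between genes. Levels by sample and fits use the 7 samples with 5 or more members, which leaves out CTX replicate 1, while values pooled over members use all 8.

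Epor (chromosome 9, 21958897 to 21963506) lay at 140 to 271 CPM in members, with a median of 213, and at 12.4 to 22.6 in the others. Tal1 (chromosome 4, 115056426 to 115071755), a basic helix-loop-helix factor of blood stem and red cells, lay at 240 to 532 CPM, with a median of 423, against 41.4 to 63.8. Klf1 (chromosome 8, 84901928 to 84905291) had the smallest ratio of the 8, with 82.8 to 160 CPM against 24.6 to 34.7. Groups did not overlap for any of the 8 genes, which the choice of nuclei favours.

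Gypc, a membrane skeleton glycoprotein, had a median of 209 CPM in members and 17.1 in the others. Kcnn4, the calcium-activated potassium channel of red cells, had 205 against 17.8, and Smim1, which carries the Vel blood group antigen, 111 against 8.90. For Tmc8 the medians were 348 and 29.3 CPM, and for Gpr146 they were 190 and 19.7. The peaks of Gpr146 all overlap 3110082I17Rik as well, and the longest of Tmc8 overlap Tmc6, so the gene concerned is uncertain for both.

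Of the members, 70.7% had a count at 4 or more of the 8 genes and 25.9% at 7 or 8. In the other nuclei the shares were 9.09% and 0.566%. The number of counts in the peaks of the score ran from 6 to 82 in a member, with a median of 20.

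Each gene of the score was then read in nuclei that it had not chosen, by recomputing the score over the other 7 genes and taking the top 0.4% again. The 8 genes had themselves been picked from these data, so the values are a description with no test. The omitted gene was higher in the nuclei so chosen for all 8 genes, in every sample with 5 or more nuclei so chosen (6 to 8 samples by gene). Levels in this paragraph were scaled to the counts summed over genes, not to all peak counts. They are therefore not comparable with the CPM values given elsewhere. Gypc had the largest log2 fold, 2.93 (SE 0.24), at a level of 170 ± 72.3 (SD, n = 7 samples) against 19.2 ± 4.07. Klf1 had the smallest log2 fold, 1.27 (SE 0.24), at a level of 87.4 ± 10.6 against 32.5 ± 4.92. Epor gave 2.77, Tal1 2.05, Kcnn4 2.76, Smim1 2.80, Tmc8 2.73 and Gpr146 2.72 on the log2 scale.

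**Figure D1:**
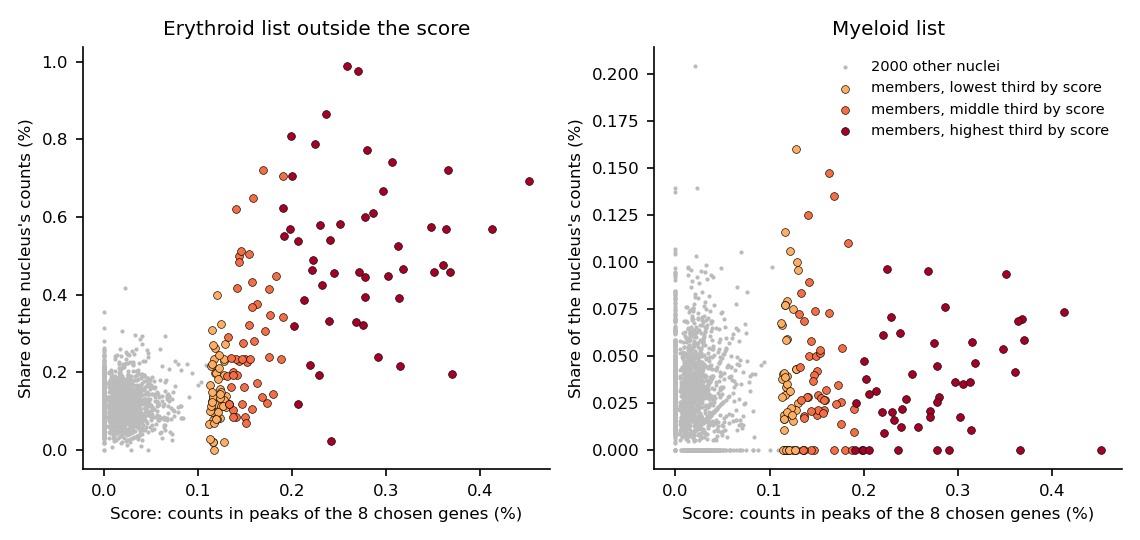
Each point is 1 nucleus. The x axis is the score (percent of its counts in peaks of the 8 chosen genes) and the y axis the percent of its counts at the erythroid list outside the score (left) or the myeloid list (right). Grey points are 2000 randomly drawn other nuclei, and coloured points the 147 members in 3 groups of 49 by score. On the left the points of the highest 49 stand mostly above the grey cloud, and on the right members and other nuclei span the same heights.

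For the rest of the genome, members were compared with the other nuclei of the same sample by summing counts over nuclei, with peaks of the score left out, in an edgeR quasi-likelihood fit with a term for the sample. Of 17222 genes tested, 1483 were called higher in members (8.61%) and 3586 lower (20.8%) at an adjusted p of 0.05 or less. Those higher fell to 882 without CTX replicate 2, 918 without LGE replicate 1 and 973 without CGE replicate 1. They were 240 with Epor, Gypc, Klf1 and Tal1 alone in the score, 719 over peaks within 1000 bp of a start site, and 2848 with no term for the sample. The median log2 fold over all genes was -0.18, and it was -0.03 when total counts set the library size. That scaling gave 2482 higher and 3183 lower, so that 43.8% of the calls were higher rather than 29.3%.

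Erythroid genes outside the score were the leading list. Of 40 genes on it 35 were tested, 25 were higher in members, none was lower and 10 were not called. Their median log2 fold was 1.2. Over all genes tested, 8.61% were higher. The list sum was higher in members in 7 of 7 samples, by 2.01-fold to 3.94-fold. The 3.94-fold is that of CTX replicate 2, whose sum holds 7 genes with peaks called in that library alone. In the other samples the highest was 3.29-fold, in CGE replicate 1. Sums and rankings by this list below keep those 7 genes and were not computed without them.

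The largest gene folds of the erythroid list rested on 1 library. For Hbb-y, Hbb-bt and Hba-x (globins), Slc4a1 (the anion exchanger band 3), Kel (a blood group antigen), Trim10 and Hemgn, a peak had been called in CTX replicate 2 alone. At Hbb-y (chromosome 7, 103851749 to 103853216), an embryonic beta-type globin, 38 of the 83 counts of that library were in its 35 members. That is 84.4 CPM in members and 0.504 CPM in the other nuclei. At Slc4a1 (chromosome 11, 102348824 to 102366203) the counts were 64 in members and 112 in the other nuclei, or 142 against 1.25 CPM. Globin copies resemble each other, and nothing read for this work says how reads that fit several copies were placed. Hba-x (chromosome 11, 32276400 to 32278116), an embryonic alpha-type globin, had 209 CPM in members and 3.09 in the others, and Hbb-bt had 37.7 against 0.269.

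A peak called in 1 library can owe its call to the members' own counts, so these genes had to differ. In the 22 erythroid genes with a peak in all 7 samples, 15 were higher and none lower, with a median log2 fold of 1.04. Over all 16268 genes with a peak in all 7, 8.88% were higher. Without CTX replicate 2, 27 erythroid genes were tested and 14 were higher.

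The transcription factor gene Nfe2 (chromosome 15, 103248212 to 103258403), which acts in red cell precursors and megakaryocytes, had the largest fold among these 22. In members it lay at 233 CPM in CTX replicate 2, 125 and 251 in MGE, 235 and 180 in LGE, and 256 and 69.0 in CGE. In the other nuclei it lay between 10.8 and 21.5 CPM, so that no member value came down to them. The log2 fold was 3.16 (SE 0.23, adjusted p = 4.86e-08).

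The others of this kind are named here after their values were seen. Tmod1, which caps actin in the red cell membrane skeleton, had a log2 fold of 2.44 (adjusted p = 1.35e-06). Gfi1b, a repressor of erythroid and megakaryocyte development, had 2.21 (adjusted p = 0.0158). Icam4 gave 2.10 (adjusted p = 0.000101). The spectrin and ankyrin genes Sptb and Ank1 rose by 1.29 and 0.97 on the log2 scale, and the heme synthesis gene Urod by 1.15.

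Some erythroid genes did not follow. Gata1 on the X chromosome had 0 member counts and 170 in the other nuclei, too few to compare (adjusted p = 0.554). Cbfa2t3, a co-repressor, had a log2 fold of 0.11 (adjusted p = 0.742) with all its member counts in peaks shared with neighbouring genes. Epb42, a membrane skeleton protein, had 34 counts in members, all of 1 sample (adjusted p = 0.064). The other uncalled genes are named after their values were seen. Aqp1 had a log2 fold of -2.18 from 4 member counts (adjusted p = 0.0761), Rhag -0.92 from 3, and Add2 -0.38 from 210. Above 0 were Rhd (0.91), Tfrc (0.51), Slc25a37 (0.42) and Tfr2 (0.26). At 2000 or more counts per nucleus, or with all samples of at least 1 member, 1 erythroid gene was called lower. Hba-a1, Hba-a2, Hbb-bs, Hbb-bh1 and Car1 had no peak that entered the fit.

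**Figure D2:**
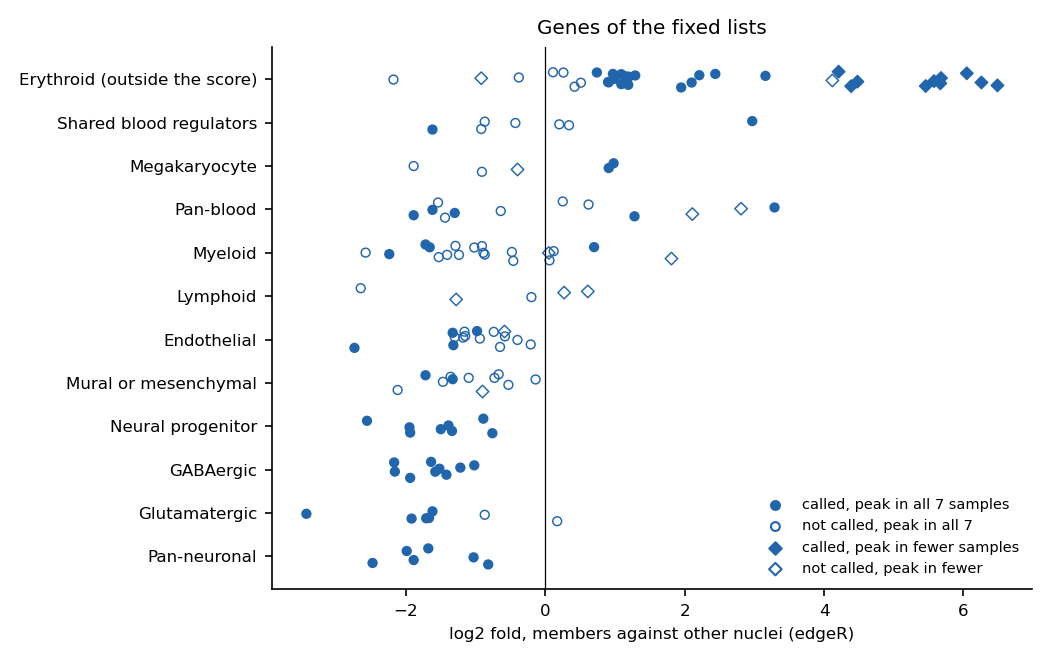
Log2 fold of each tested gene of the 12 fixed lists (members against other nuclei, edgeR, x axis), one row a list. Filled points were called at an adjusted p of 0.05 or less, circles had a peak in all 7 samples and diamonds in fewer, and genes with 0 member counts are left out. Erythroid genes stand to the right, the diamonds farthest, while progenitor and neuronal genes stand to the left.

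Among regulators shared by blood stem cells and vessels, 1 of 7 was higher and 1 lower, where 8.61% of all genes tested were higher and 20.8% lower. Lyl1, a relative of Tal1, lay at 159 to 580 CPM in members and 13.6 to 77.8 in the others, with no overlap and a log2 fold of 2.97 (SE 0.26, adjusted p = 4.7e-07). All of its counts were in peaks that also overlap Nfix or Trmt1, so the gene concerned is uncertain. Kit, the stem cell factor receptor, was lower in 7 of 7 samples (log2 fold -1.62, adjusted p = 0.00127). Lmo2 (0.34), Runx1 (0.20) and Gata2 (-0.43) were not called.

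Of 6 megakaryocyte genes tested, 2 were higher and 4 were not called, with a median log2 fold of -0.65, where 8.61% of all genes tested were higher. Vwf, von Willebrand factor, lay at 67.5 to 174 CPM in members against 35.9 to 49.2 (log2 fold 0.98, adjusted p = 0.00204). Itga2b, the platelet integrin CD41, lay at 77.7 to 138 against 34.7 to 64.0 (0.91, adjusted p = 0.00329). Both were higher in every sample. Over peaks within 1000 bp of a start site the log2 fold of Vwf turned to -0.19. Vwf was not called with nuclei thinned to 5000 counts, nor Itga2b with Epor, Gypc, Klf1 and Tal1 alone in the score.

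The pan-blood list, genes used across white cells, had 2 of 12 genes higher and 3 lower, with a median log2 fold of -0.20, where 8.61% of all genes tested were higher and 20.8% lower. Inpp5d, which encodes the SHIP1 phosphatase, had 209 CPM in members of CTX replicate 2, 61.4 and 174 in MGE, 210 and 70.0 in LGE and 131 and 48.3 in CGE. The other nuclei stayed between 5.61 and 12.4 CPM (log2 fold 3.29, SE 0.34, adjusted p = 4.1e-06). Over peaks within 1000 bp of a start site its fold was -0.87 (adjusted p = 0.404), so the difference lay away from the start. Ikzf1, a lymphoid and erythroid zinc finger factor, was higher in 7 of 7 samples (1.28, adjusted p = 0.00329).

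Ptprc, which encodes the white cell antigen CD45, was lower, at 0 to 20.7 CPM in members against 8.35 to 28.3 (log2 fold -1.62, adjusted p = 0.0236). Coro1a, an actin regulator of white cells (-1.30), and Dock2, a migration factor of white cells (-1.89), were lower too. Ptprc had 16 member counts and Coro1a 28. The 3 lower calls became 1 at 10000 or more counts per nucleus, at the top 0.8% by score or with nuclei thinned to 5000 counts. They were also 1 with a score over regions present in all 8 samples, without CGE replicate 1, or over peaks within 1000 bp of a start site. Without MGE replicate 1 or LGE replicate 1 they were 2. Among the blood lists, most tested genes were called higher in the erythroid list alone, so the wider name blood-lineage-like is not used and the nuclei are called members.

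Few myeloid loci passed the test. Of 29 genes 22 were tested, and 1 was higher, 3 were lower and 18 were not called, with a median log2 fold of -1.13. Among the 17 with a peak in all 7 samples the same 1 and 3 were called. Over all genes tested, 8.61% were called higher and 20.8% lower.

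The gene called higher was Cx3cr1, the fractalkine receptor of microglia. It lay at 176 to 309 CPM in members and 103 to 126 in the others (log2 fold 0.70, SE 0.19, adjusted p = 0.00737). Its window is long, and 51.4% of its member counts were in peaks that also overlap other genes, among them Csrnp1. With Epor, Gypc, Klf1 and Tal1 alone in the score it was not called. Cebpa, Irf8 and Tlr2, a pattern recognition receptor, were lower, with log2 folds of -1.66, -1.72 and -2.24 and no sample in which members were above. The counts of Irf8 were all in peaks shared with Gm20388. The 3 lower calls became 0 at 10000 or more counts per nucleus, with nuclei thinned to 5000 counts or with the score of 4 genes, and 1 without LGE replicate 1 or CGE replicate 1.

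Spi1, the defining factor of the lineage, lay at 0 to 57.7 CPM in members and 16.1 to 23.6 in the others, higher in 3 of 7 samples (log2 fold 0.12, adjusted p = 0.837). Csf1r had 10 member counts and C1qa 9, with adjusted p values of 0.402 and 0.576. At so few counts a moderate difference was not detectable.

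The list sum lay near that of the other nuclei. Myeloid CPM in members over that in the others ran from 0.96-fold to 2.19-fold by sample, with a median of 1.14. It was above 1 in 6 of 7 samples. The largest part came from Cx3cr1, with 428 member counts and 77403 in the others. The next in members was Spi1, with 60, and the next in the others Cebpa, with 24371. The sum without Cx3cr1 was not computed, and the median log2 fold over the 22 tested genes was -1.13. Sums and rankings by the whole myeloid list below include Cx3cr1. The erythroid ratio had a median of 2.92.

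**Figure D3:**
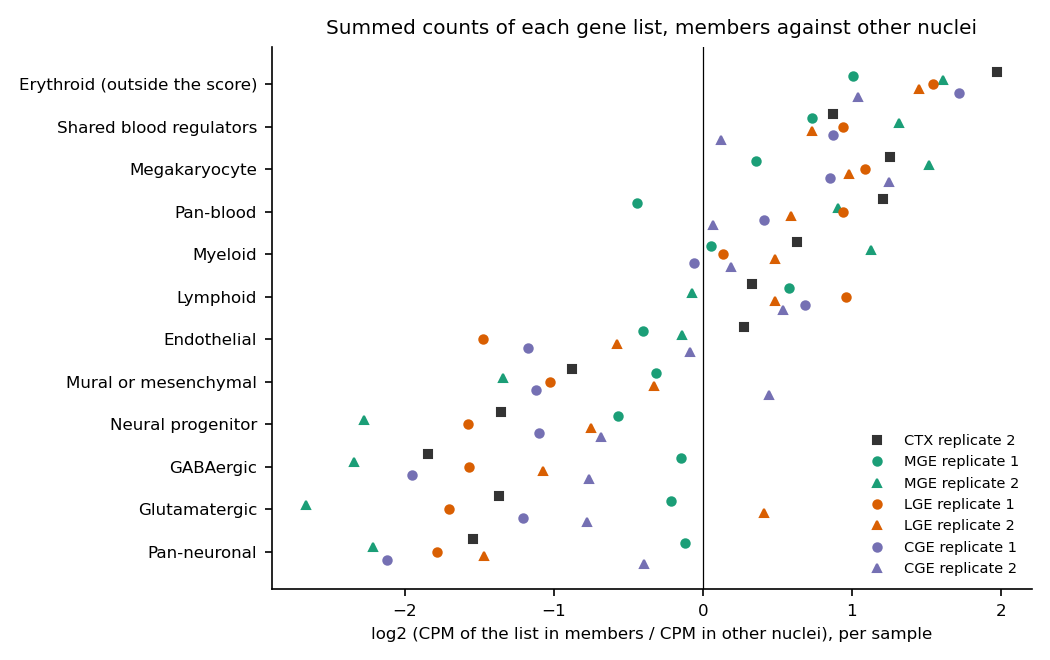
Log2 ratio of the summed CPM of each list in members to that in other nuclei (x axis), one symbol for each of the 7 samples with 5 or more members. The erythroid, shared regulator and megakaryocyte lists are right of 0 in all 7 samples, the myeloid list lies around 0 to the right in 6, and the progenitor, GABAergic and pan-neuronal lists are left of 0 in all 7. Lyl1 had the most member counts of the shared regulators (627), and Vwf (195) and Itga2b (194) those of the megakaryocyte genes. Median log2 folds by gene were -0.43 and -0.65 in these lists, and sums without those genes were not computed.

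Nuclei were also ranked by each list in the way the score ranked them, and the top 0.4% compared, so that each list's top holds 0.4% of all nuclei. Of the 147 members, 63 (42.9%, 95% exact binomial interval 34.7 to 51.3) were among the 147 top nuclei by the erythroid list. Of the 147 members, 4 (2.72%, 0.746 to 6.82) were among the 147 top nuclei by the myeloid list, and 1 of these 4 was also in the erythroid top. Both shares are above 0.4%, but the myeloid share was 0.68% with Epor, Gypc, Klf1 and Tal1 alone in the score and 1.79% without CTX replicate 2. The intervals cover counting error only, and members in the erythroid top ran from 0 of 4 in CTX replicate 1 to 21 of 35 in CTX replicate 2. The erythroid ranking in CTX replicate 2 includes the peaks called in that library alone. The overlap was 10 for the pan-blood, 12 for the shared regulator, 6 for the megakaryocyte, 3 for the endothelial, 2 for the lymphoid, 2 for the neural progenitor and 0 for the GABAergic and pan-neuronal lists. The tops by the erythroid and the myeloid list themselves shared 4 nuclei, 2.72% of each. With the neural lists the erythroid top shared 4 nuclei (glutamatergic), 3 (GABAergic), 1 (neural progenitor) and 1 (pan-neuronal). The overlap with the myeloid top was thus no larger than that with the glutamatergic top.

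This comparison is limited by what the myeloid list can mark. When each list was split into sets A and B of alternating genes, after seeing the data, the top nuclei by erythroid set A had 2.46 times the CPM of the remaining nuclei at set B, and those by set B 2.38 times at set A. The tops by A and B shared 37 nuclei. For the myeloid sets the ratios were 1.31 and 1.38, and the tops shared 2 nuclei. The myeloid list thus marked a repeatable set of nuclei far less well than the erythroid list at this depth. An overlap of 4 nuclei does not show that nuclei with open myeloid loci are absent. What was measured is that Spi1, Cebpa and Irf8 were not called higher in members.

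The members differed among themselves in step with the score. In 3 groups of 49 nuclei by score, the erythroid list outside the score stood at 1770, 2970 and 5140 CPM from the lowest-scoring to the highest-scoring group, against 1160 in the other nuclei. Of the lowest group 3 nuclei were in the erythroid top, of the middle group 18 and of the highest group 42. Across members the score and the erythroid share had a Spearman rho of 0.69 (n = 147 nuclei), a description over nuclei that share libraries and a denominator.

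Neural progenitor loci went the other way, at 1510, 846 and 310 CPM in the same order, against 1560 in the other nuclei. The lowest group thus stood at 0.968 of the neural progenitor level of the other nuclei, and the highest group at 0.199 of it. GABAergic loci stood at 1220, 655 and 198 CPM, against 1080. The share of counts near start sites was 57.6%, 67.6% and 79.5%, against 51.5%.

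Myeloid loci showed no such order, with 355, 414 and 348 CPM, against 299 in the other nuclei. The rho between erythroid and myeloid shares across members was 0.09, and that between erythroid and neural progenitor shares -0.57. The pan-blood list stood at 258, 427 and 567 CPM and the megakaryocyte list at 202, 295 and 270. The highest group held nuclei of 7 samples, with 14 each from CTX replicate 2 and LGE replicate 1, and the lowest group was largest in MGE replicate 1, with 15.

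**Figure D4:**
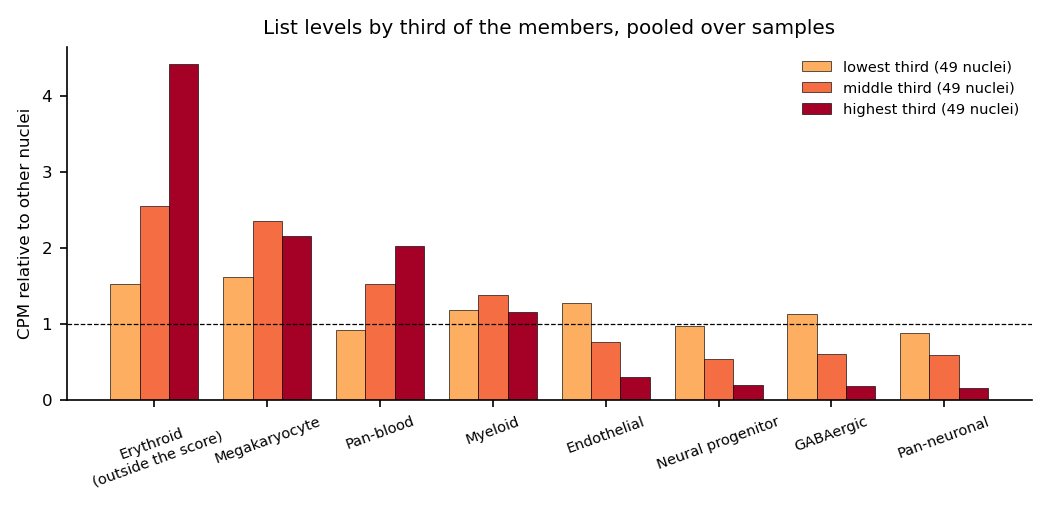
Summed CPM of 8 lists in 3 groups of the members by score (49 nuclei each, pooled over samples), relative to the other nuclei (y axis, dashed line at 1). Erythroid bars climb from 1.53 to 4.43 and neural progenitor bars drop from 0.968 to 0.199, while myeloid bars stay between 1.16 and 1.38.

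Loci of the resident forebrain cells were lower in members. All 8 neural progenitor genes, all 9 GABAergic and all 6 pan-neuronal genes were lower, and 5 of 7 glutamatergic genes were, where 20.8% of all genes were lower. With Epor, Gypc, Klf1 and Tal1 alone in the score, 7 of 8, 5 of 9, 1 of 6 and 2 of 7 were lower in the same order. With no term for the sample, 3 of the 9 GABAergic genes were. Pax6, a patterning factor of cortical progenitors, lay at 13.8 to 190 CPM in members and 145 to 258 in the others (log2 fold -1.94, adjusted p = 0.000131). Fabp7, a radial glia protein, had 22 member counts (-2.56, adjusted p = 0.000285) and Sox2, the neural stem cell factor, 226 (-1.95, adjusted p = 0.000122). Gad1, which makes GABA (log2 fold -2.17), and the microtubule gene Map2 (-1.99) were lower as well. Dlx2, which specifies GABAergic cells, lay at 8.88 to 479 CPM in members, against 53.0 to 510 in the others, and nearly all its counts were in peaks shared with Dlx1 or Metap1d.

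Vessel loci were read as well. Of 15 endothelial genes 4 were lower and none higher, where 20.8% of all genes were lower and 8.61% higher, with Pecam1 (-0.98), Flt1 (-1.32), Erg (-1.33) and Emcn (-2.74, from 3 member counts) past the threshold. Over peaks within 1000 bp of a start site, Pecam1 and Emcn turned to 0.12 and 0.83. The 4 became 0 without LGE replicate 1 and at the top 0.8% by score, 1 without CGE replicate 1, and 2 without CTX replicate 2, MGE replicate 2 or LGE replicate 2. Of 11 mural or mesenchymal genes, Tbx18 (-1.72) and Col1a2 (-1.33, adjusted p = 0.0486) were lower. Col1a2 lost its call without any 1 of 6 samples, MGE replicate 1 excepted, and the list had 5 lower at the top 0.2% by score and in DESeq2. None of 7 lymphoid genes was called.

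Over all genes, on a list or not, the folds higher in members in every sample were led by Acp5, the tartrate-resistant acid phosphatase. It lay at 13.8 to 135 CPM against 1.32 to 4.65 (log2 fold 4.05, SE 0.49, adjusted p = 1.98e-05). Others were AA986860 (3.58), Asb17 (3.57) and Trim15 (3.4), a neighbour of the erythroid list's Trim10 on chromosome 17. Inpp5d and Htatip2 (both 3.29), Nfe2 (3.16), Uba7 (3.07) and Pkhd1l1 (3.05) followed. In each of these genes members lay above the other nuclei without overlap, which the choice of the largest folds favours. The same was true of 8.39% of all genes tested.

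The genes with the largest folds lower had no member count in the 7 fitted samples, and at 5.77% of all genes tested members lay below the other nuclei in those samples without overlap. The 4 members of CTX replicate 1, outside the fit, had 1 count at Dcn and 4 at Hrasls (73.1 CPM against 11.9). Dcn, the matrix proteoglycan decorin, had 11543 counts in the other nuclei and was at least 10.4-fold lower in members, taking 3 counts over the members of the 7 samples as the limit. By the same limit Cyp4x1 was at least 6.34-fold, Hrasls 5.33-fold, Phlda2 4.50-fold and Serpinb1b 4.00-fold lower.

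Single regions were tested next. Of 130223 merged regions with a peak in 4 or more samples, 1054 (0.809%) were higher in members and 28728 (22.1%) lower by the same fit, or 22.9% called. The median log2 fold over all regions was -2.34. In the 7 fitted samples 37.7% of the regions tested, and 46.6% of those called lower, held 0 member counts, so many of these folds rest on zeros. DESeq2 gave a median of -0.42, with 1834 regions higher and 18870 lower. With total counts as library size 3465 were higher and 7087 lower, so that 32.8% of the calls were higher rather than 3.54%. Without CTX replicate 2 the regions higher fell to 580 and those lower to 12414, and without LGE replicate 1 or CGE replicate 1 those higher were 702 and 699. The first of the sequences above, in an intron of C2cd3 (chromosome 7, 100466938 to 100467560), lies 1531 bp from the nearest start site. It held 80 counts in members and 158 in all other nuclei, in the 4 samples with a peak there. By sample it lay at 38.7 to 131 CPM in members and 0.186 to 1.03 in the others (log2 fold 6.84, SE 0.95). Members were 0.436% of the nuclei and gave 0.269% of the counts, but 33.6% of the counts of this region.

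The Ksr1 intron region (chromosome 11, 79071442 to 79071993) had 34.2% of its counts in members, and the Rbfox1 intron region (chromosome 16, 6095943 to 6096424) 33.5%. The fourth, in an intron of Tspan33 (chromosome 6, 29697505 to 29697994), had 26.4%. Tspan33, a tetraspanin of red cell precursors, was called higher as a gene in the edgeR fit (log2 fold 1.2, adjusted p = 0.000251). Its 311 member counts include the 65 of this region, so the gene is no separate reading. In all, 104 of the regions called higher had 10% or more of their counts in members. As with the globins, a peak at such a region can owe its call to the members, so the values of the named regions are a description, and the named regions had peaks in 4 or 5 of the 7 samples. Of the 1054 regions called higher, 706 had a peak in all 7 samples. A separate fit to the 68259 regions with a peak in all 8 samples called 990 higher and 24173 lower. Those 990 are calls of that fit and do not count how many of the 1054 remained.

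The regions with the largest folds lower held 0 member counts. One lies between genes on chromosome 7 (73221551 to 73225461) and was at least 15.7-fold lower, and one in Trp63 on chromosome 16 (25736088 to 25738432) at least 13.5-fold lower.

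Regions called higher were closer to genes and richer in erythroid words than the rest. Of them 63.7% lay more than 1000 bp from a start site, against 84.6% of all tested. Among those distal regions, the spaced TAL1 and GATA1 word stood in the central 300 bp of 26 of 671 (3.87%), against 0.391% of all 110198 distal regions. AGATAA stood in 25.6% against 15.3%, the NFE2 word in 2.68% against 0.243%, and CCACACCC in 5.22% against 2.15%. Searches covered both strands, and the spaced word contains AGATAA. The word TAATTA, the core bound by homeodomain factors, ran the other way, with 5.37% against 14.7%. GAGGAAGT, a word bound by SPI1, stood in 2.53% against 1.84%. The median GC content was 52.0% in the distal regions called higher and 46.7% in all distal regions, and its part in these shares was not tested.

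Motif counts, which the authors deposited per nucleus for 579 motifs, were put through a fit of the same kind, in which 207 were higher (35.8%) and 207 lower (35.8%), or 71.5% called. These motif counts include the peaks of the score, which held 1830 CPM in members and 185 in the other nuclei, so they are not independent of the choice and the folds are given as a description. The compound motif GATA1::TAL1 was higher in 7 of 7 samples, with 231 to 373 CPM of motif counts in members and 182 to 228 in the other nuclei (log2 fold 0.46, SE 0.10). MAF::NFE2 (0.49), Nfe2l2 (0.59) and Klf1 (0.37) were higher too, and 7 of 8 KLF motifs were higher. The motifs NFE2 (-0.11), MAFG::NFE2L1 (0.04) and TAL1::TCF3 (-0.08) were not called. The plain Gata1 motif was not called (-0.06), and of 7 motifs with GATA in the name only GATA1::TAL1 was higher, while GATA6 was lower.

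Motifs of promoters led the list, with ZBTB7B at 1.17 and the ETS motifs Gabpa (0.75), ELK4 (0.74), ELF3 (0.73), ELF4 and ELF5 (both 0.72). The share of counts near start sites moved with these motifs, and its part was not tested. The myeloid motif SPI1 was not called (0.04, higher in 1 of 7 samples) and CEBPA was lower (-0.26), while IRF8 (0.37) and SPIB (0.11) were higher. Lowest were Pou5f1::Sox2 (-0.66), Hoxc9 and Pax6 (both -0.62), NOTO (-0.61), MEOX1 (-0.60) and EVX2 (-0.58). LHX2 (-0.55) and all 5 DLX motifs, homeodomain motifs of forebrain cells, were lower as well.

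**Figure D5:**
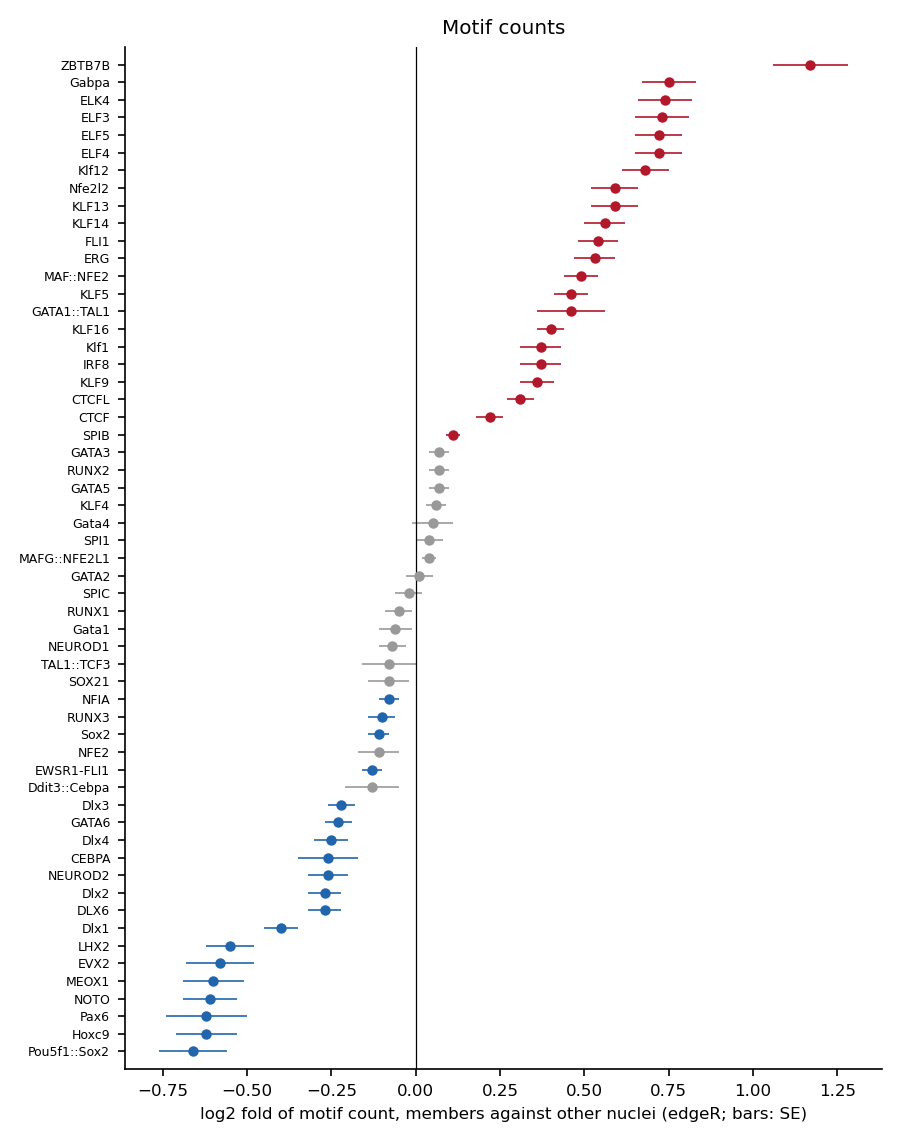
Log2 fold of motif counts in members against other nuclei (x axis; bars are SE, edgeR over 7 samples) for the motifs named by rule. Red and blue points were called higher and lower at an adjusted p of 0.05 or less, and grey points were not called. Most ETS and KLF motifs, MAF::NFE2, Nfe2l2 and GATA1::TAL1 lie to the right, and homeodomain motifs to the left. SPI1, the plain Gata1 motif and MAFG::NFE2L1 lie next to 0, and NFE2 slightly to the left of it.

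Whether members differed from their neighbours to another degree in cortex than in GE was asked with an interaction term. Of 17593 genes, none passed in edgeR at an adjusted p of 0.05 or less, and 316 had an unadjusted p below 0.05. The cortical side of this test is CTX replicate 2 alone, the only sample of age E14.5. It is assumed to vary as the GE samples do, which alone give the spread.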

How the data were processed

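Single-nucleus ATAC-seq libraries of 8 samples were used. The authors deposited, for each sample, a peak list called in that sample alone, raw peak counts for each barcode, and raw motif counts for each barcode. The submitters' processing notes name Cell Ranger ATAC 1.2.0 and the build GRCm38 (mm10). Nothing read here says how barcodes were filtered. The members, gene lists and tests were chosen with earlier results of these data known.

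Genes were 21911 protein-coding genes of GENCODE release M21, each with the 2000 bp upstream. A gene's count summed the sample's peaks overlapping it, so a gene has counts only where that library has a peak. Peaks of the score were left out of every gene and region tested. Peaks were merged over samples into 292532 regions. Counts were summed per sample over members and over the other nuclei, in the 7 samples with 5 or more members, and fitted with edgeR 4.0.16 (filterByExpr, TMM scaling, sample and member terms, quasi-likelihood test, Benjamini-Hochberg adjustment, calls at 0.05 or less). DESeq2 1.42.0, other scalings, filters, count minimums and score cuts were tried. On simulated counts for these 17222 genes, 46% of genes changed 2-fold higher and 94% of those changed 4-fold higher were recovered, and 34% and 70% of those changed to 0.5-fold and 0.25-fold. Named genes were those of the score, up to 8 called genes (by fold) and 3 uncalled genes of the erythroid, shared regulator, myeloid and pan-blood lists, up to 4 called genes of other lists, and the 10 highest and 5 lowest folds seen in every sample. Named motifs were the 6 largest folds each way and a fixed list, and named regions the 4 highest and 2 lowest. Nothing in the labels says that replicates came from separate litters, so p-values measure the spread between these samples. Differences in gene fold between replicates 1 and 2 correlated at -0.16 to 0.24 between regions over 7637 genes. The replicate numbers were not taken to pair samples. This check covered gene folds only. The share of members was higher in replicate 1 than in replicate 2 in MGE, LGE and CGE, and lower in CTX. Some genes that meet these rules are not reported here.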

Additional observations from a re-analysis of the deposited data

Results flagged for a closer look

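Among the 6 GE samples, 16 measures of the members were checked for a sample far from the others, and chance flags about 1 group in 20. CGE replicate 2 stood apart with a median of 15139.5 counts per member, against 9722 to 10917 in the other GE samples. MGE replicate 2, with 5 members, stood apart with a myeloid ratio of 2.19 between members and other nuclei.

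Some nuclei outside the fits also had counts at erythroid loci above their surroundings. The 4 members of CTX replicate 1, too few for the fit, had 1900 CPM at the erythroid list outside the score, against 1110 in the other nuclei of that sample. Among nuclei of at least 2000 but under 5000 counts, the 56 that reached the score of the members had 2030 CPM, against 1210 in the 1984 below it. No test was run on either.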

How the results depend on the processing

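The number of genes called (5069) fell to 1782 (240 higher and 1542 lower) when Epor, Gypc, Klf1 and Tal1 alone made the score, and that of motifs (414) to 249 with no term for the sample. The number of regions called (29782) was 10552 with total counts as library size, 8942 with samples of 10 or more members, and 12994 to 30777 when 1 sample was left out, with 12994 without CTX replicate 2, 16440 without MGE replicate 2, 14669 and 18197 without LGE replicates 1 and 2, and 15650 and 19403 without CGE replicates 1 and 2. Leaving out a sample gave 3596 to 5036 genes and 381 to 412 motifs. Erythroid genes called higher (25) were 14 to 26, lowest without CTX replicate 2, and 15 with a peak in all 7 samples, a setting chosen after seeing the data. The myeloid gene called higher (1) was 0 with the score of 4 genes. Myeloid genes called lower (3) were 0 with that score, at 10000 or more counts per nucleus or with nuclei thinned to 5000 counts, 1 at the top 0.8% or with samples of 10 or more members, 7 at the top 0.2%, and 1 to 3 with a sample left out. The overlap with the myeloid top (2.72%) was 0.68% with the score of 4 genes, 4.08% with nuclei thinned to 5000 counts, 4.76% with the top 0.8% by the myeloid list, and 1.79% to 3.67% with a sample left out. Endothelial genes called lower (4) were 0 with the score of 4 genes.

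The CTX minus GE share of members (0.057 points) turned to -0.0296 with the score of 4 genes, to -0.0773 with regions present in all 8 samples, and ran from -0.256 to 0.37 with a sample left out. Permuted within the replicate number as a block it had an exact p of 0.75, and the interaction with the replicate block called 0 genes in edgeR (367 at unadjusted p below 0.05). Without the block it called 0 with each sample left out in turn, CTX replicate 2 excepted, where it could not be fitted.

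Over peaks within 1000 bp of a start site, log2 folds turned for Vwf (-0.19), Inpp5d (-0.87), Laptm5 (0.07), Emcn (0.83) and Pecam1 (0.12). Among other genes that were not called, those that turned were Gata1 at the top 0.8% (1.54) and in DESeq2 (5.46), Cbfa2t3 thinned (-0.08), in DESeq2 (-0.07) and with a sample left out (-0.10 to 0.22, lowest without MGE replicate 1), and the Epb42 log2 fold with a sample left out (-5.21 to 5.13, lowest without CTX replicate 2). Spi1 turned with the score of 4 genes (-0.21), in DESeq2 (-0.05) and with a sample left out (-0.13 to 0.25, below 0 without CTX replicate 2 or LGE replicate 2), Csf1r at the top 0.8% (0.12) and with the score of 4 genes (0.08), and C1qa with no term for the sample (0.41). The causes were not tested. Among single named genes, 1259 recomputed values kept direction and call, 135 lost the call, 8 gained it and 18 turned direction.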
